A study of Homo sapiens with 2 samples.

Results

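The lysosome is the acidic compartment in which cells break down proteins, sugars and lipids, and 41 genes of its membrane, its enzymes, its proton pump and its transcription factors were compared here between NUGC4 cells with and without an siRNA against ANO5. The genes were chosen by name, with earlier results of these data known. They are 5 membrane proteins, 2 lumenal proteins that are no enzymes themselves, 9 proteases, 7 other hydrolases, 15 genes of the V-ATPase and 3 transcription factors of the TFEB family. The expression table held a value for 36 of the 41, out of 14526 named genes. NPC2, GLB1, NEU1, TFEB and ATP6V0A1 were not analysed here. Of the 36 genes, 35 lay in the measured range, defined as a mean of both arrays at or above the 33rd percentile of named genes (6.05 on the log2 scale), which holds 9735 genes. The exception was MITF, and none of the 35 had a value below that limit on either array.

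NUGC4 is a human gastric cancer cell line. One culture received a negative control siRNA and the other received an siRNA against ANO5, which encodes the membrane protein anoctamin 5, each at 20 nmol/l. Both were transfected with Lipofectamine RNAiMAX 24 h after seeding, and total RNA was labelled with biotin and hybridised to expression arrays. Each group is 1 array of 1 cell line, the knockdown rests on a single siRNA, and no time of harvest is named in the labels. With 1 array per group there is no spread between replicates, so no standard error or p-value is given. The number of arrays limits the precision, and every difference compares these 2 RNA samples only.

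Lysosomal enzymes are made in the endoplasmic reticulum, tagged with mannose 6-phosphate and carried to the lysosome by receptors that recognise the tag. The V-ATPase uses ATP to pump protons into the lumen. Its cytosolic V1 sector hydrolyses ATP and turns a rotor in the membrane sector V0. TFEB, TFE3 and MITF are related factors that activate many lysosomal genes through promoter elements built around an E-box, and they are kept in the cytosol when nutrients activate mTORC1 on the lysosomal surface.

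The targeted gene, ANO5, was lower in the cells that received its siRNA. Its log2 signal was 6.83 on the control array and 3.67 after ANO5 siRNA, a difference of -3.16. Its mean of both arrays lay below the measured range. The 7 epithelial markers EPCAM, CDH1, KRT8, KRT18, KRT19, CLDN4 and CLDN7 had log2 signals of 13.26 to 17.06 in the control and 13.34 to 17.37 in the knockdown. Their differences ran from -0.19 to 1.02. Of 6 macrophage markers, the leukocyte gene PTPRC was at 3.68 and 3.49, and CD14, CD68, CD163, CSF1R and TYROBP were between 4.46 and 7.66 on both arrays. All 6 differed by -0.56 to -0.12, so none was higher in the knockdown. Of 5 fibroblast markers COL1A1 was at 4.58 and 4.62 and COL1A2 at 8.03 and 7.92. The pigment cell marker TYR was at 3.45 and 4.19. The other 3 fibroblast and 4 pigment cell markers were not analysed here.

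As a group the lysosomal genes did not move one way. Of the 35 measured, 12 (34.3%) were higher and 7 (20%) lower by at least 1.5-fold in the knockdown, and 16 lay within 1.5-fold. The background over all 9735 genes in that range was 23.2% higher and 20.1% lower by that size. The share of lysosomal genes that were lower is thus that of all genes, and the share that were higher is somewhat larger. At 2-fold, 5 were higher and 4 lower, beside 11.2% and 11.3% of all measured genes. At 3-fold it was 2 (CTSH and ATP6V1H) and 2 (LAMP1 and ATP6V1B2), beside 3.52% and 5.36%. The median difference was 0.19 on the log2 scale, against 0.07 for all measured genes, and the SD over the genes was 1.12 against 0.94. The 2 extremes were LAMP1, 9.65-fold lower, and CTSH, 11.6-fold higher.

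**Figure D1:**
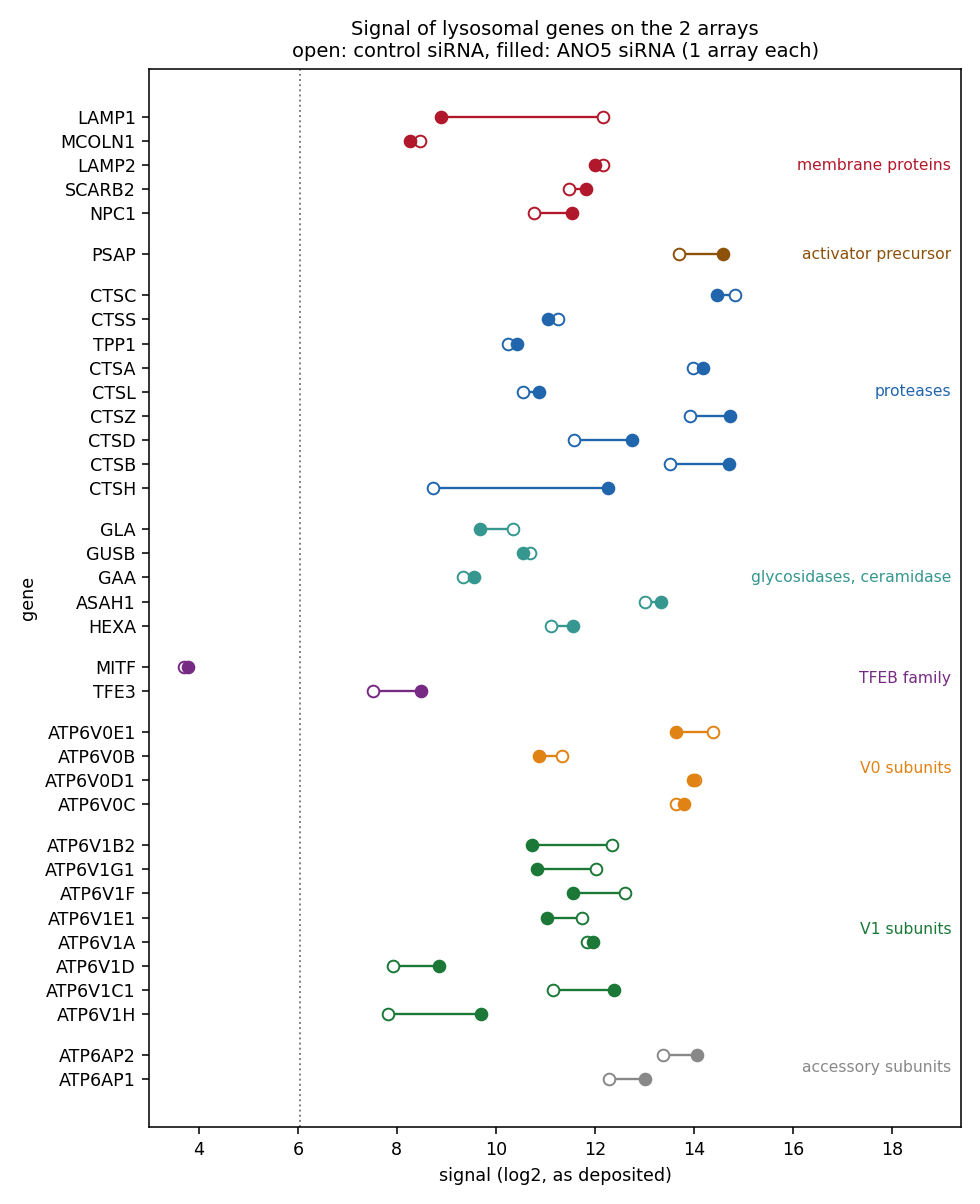
Log2 signal of the 36 lysosomal genes in the table, by role and, within a role, by difference. The open circle is the control siRNA array, the filled circle the ANO5 siRNA array, and the dotted line the lower limit of the measured range (6.05). The longest lines are those of LAMP1, where the control is higher, and CTSH, where the knockdown is higher.

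LAMP1 stood apart from the other membrane proteins. LAMP1 and LAMP2 are heavily glycosylated proteins that line the inner face of the lysosomal membrane, and LAMP2 also serves as a receptor in chaperone-mediated autophagy. The log2 signal of LAMP1 was 12.17 on the control array and 8.90 after ANO5 siRNA, a difference of -3.27. That of LAMP2 was 12.16 and 12.01, a difference of -0.15. LAMP1 was therefore far lower in the knockdown, while its paralogue LAMP2 was nearly level. SCARB2, the receptor that carries glucocerebrosidase to the lysosome, was at 11.48 on the control array and 11.82 after ANO5 siRNA (0.34). MCOLN1, the calcium channel mucolipin 1, was at 8.47 and 8.27 (-0.20). NPC1, which exports cholesterol from the lysosome, was at 10.77 and 11.54, and was 1.71-fold higher in the knockdown. The other 4 membrane proteins had a median difference of 0.10 and a lowest value of -0.20, so LAMP1 lay 3.37 below their median and 3.07 below the lowest of them on the log2 scale. These distances hold for the 4 only. Of 20 further membrane proteins described below, 5 were higher and 3 lower by 1.5-fold, and the lowest, LAMP3, differed by -1.96.

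The distance of LAMP1 from the remaining groups was of like size. It lay 3.55 below the median of the 14 measured hydrolases (0.28), 3.32 below that of the 14 measured V-ATPase genes (0.05) and 4.24 below TFE3, the measured factor of the TFEB family. The lowest hydrolase, GLA, differed by -0.66, and the lowest V-ATPase gene, ATP6V1B2, by -1.62. Of all 9735 measured genes, 42 had a difference as low as that of LAMP1 or lower, LAMP1 included. LAMP1 was known to be low on these arrays when the genes were chosen, so these distances describe it and support nothing further. LAMP1 has 1 transcript cluster (the group of probes that reads a gene), so no other cluster could check it. Whether fewer cells expressed it or each cell held less of its RNA cannot be told apart in such bulk samples.

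**Figure D2:**
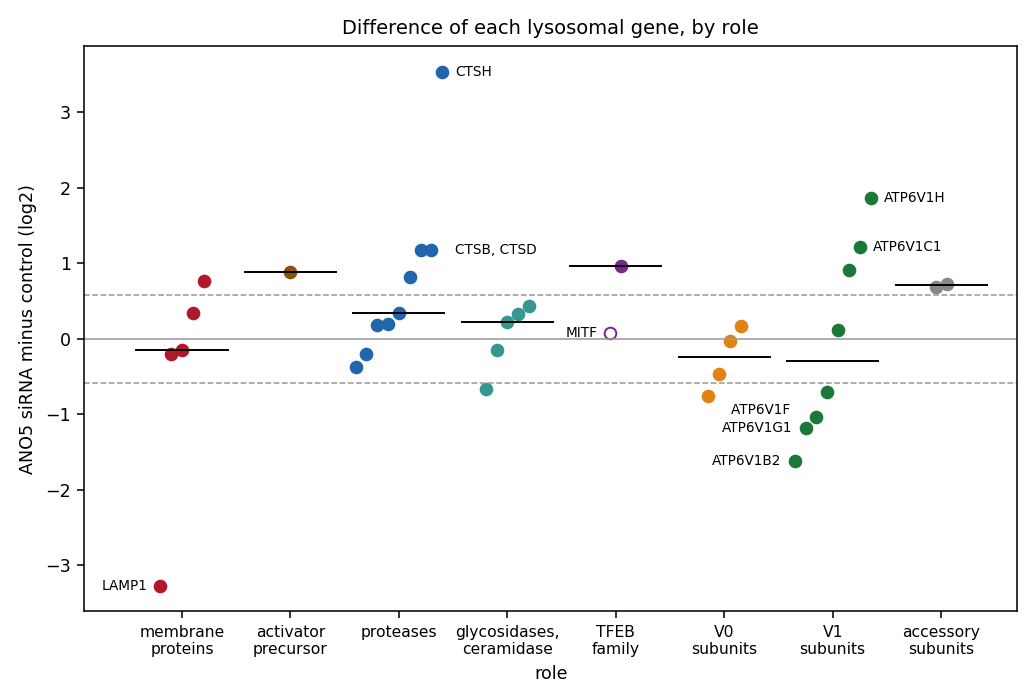
Difference on the log2 scale, ANO5 siRNA array minus control array, for each lysosomal gene by role. Black bars are medians of the measured members, dashed lines mark 1.5-fold, and the open circle is MITF, below the measured range. LAMP1 lies at -3.27, below every other gene, and V1 subunits spread from -1.62 to 1.87.

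The promoter of LAMP1 is shown because it carries more E-box cores (CACGTG, which reads the same on both strands) than any other window searched. The window runs from 250 bases before to 50 bases after the start site in RefSeq, build GRCh38.p14. It held 6 cores, and no other of the 35116 windows in the RefSeq table held 6. In the line below, the 250 bases before the start site of LAMP1 are given 5′ to 3′ on the plus strand of chromosome 13 (chr13:113296989-113297238), with the cores in capitals. The sixth core spans the start site and is given with 12 bases on each side (chr13:113297226-113297255, plus strand).
LAMP1 upstream: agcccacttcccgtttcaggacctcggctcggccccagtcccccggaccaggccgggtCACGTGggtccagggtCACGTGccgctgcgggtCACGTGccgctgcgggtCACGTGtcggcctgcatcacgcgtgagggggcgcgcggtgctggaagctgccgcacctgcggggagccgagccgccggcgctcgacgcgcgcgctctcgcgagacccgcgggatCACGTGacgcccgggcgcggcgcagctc
LAMP1 start site: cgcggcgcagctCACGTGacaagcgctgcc

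Of the 9 measured proteases, 4 were higher and 0 lower by at least 1.5-fold, beside 23.2% and 20.1% of all measured genes, and the other 5 lay within 1.5-fold. Their median was 0.34, with a range from -0.38 to 3.54. CTSH, a cysteine cathepsin that acts mainly as an aminopeptidase, had a log2 signal of 8.73 on the control array and 12.27 after ANO5 siRNA, a difference of 3.54. Only 20 of the 9735 measured genes, CTSH among them, had a difference as high. CTSD, the main aspartic protease of the lysosome, was at 11.57 on the control array and 12.75 after ANO5 siRNA. CTSB, a cysteine cathepsin, was at 13.52 and 14.70. Both were 2.27-fold higher in the knockdown. CTSZ, a carboxypeptidase, was at 13.92 and 14.74 (1.77-fold higher).

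Values were closer for the other 5 proteases. CTSL, an endopeptidase, was at 10.54 on the control array and 10.88 after ANO5 siRNA. CTSA, the serine carboxypeptidase that protects beta-galactosidase and neuraminidase, was at 13.99 and 14.18. TPP1, which removes tripeptides, was at 10.24 and 10.42. These 3 were slightly higher in the knockdown, whereas the remaining 2 were slightly lower. CTSS, a cathepsin best known from antigen-presenting cells, was at 11.26 on the control array and 11.06 after ANO5 siRNA. CTSC, a dipeptidyl peptidase, was at 14.84 and 14.46. The 6 cysteine cathepsins CTSB, CTSC, CTSH, CTSL, CTSS and CTSZ thus ranged from -0.38 to 3.54 among themselves.

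The upstream sequence of CTSH is shown beside that of LAMP1 because these genes are the extremes of the group. Its 250 bases before the start site, on the minus strand of chromosome 15 (chr15:78945047-78945296, GRCh38.p14), hold no E-box core. Their GC content is 74.4%, and that of the LAMP1 stretch is 76%.
CTSH upstream: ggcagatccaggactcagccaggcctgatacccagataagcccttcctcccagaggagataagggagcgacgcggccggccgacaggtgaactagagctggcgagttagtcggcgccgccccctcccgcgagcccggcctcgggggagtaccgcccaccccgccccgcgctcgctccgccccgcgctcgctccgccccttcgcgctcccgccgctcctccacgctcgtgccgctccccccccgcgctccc

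The glycosidases and the ceramidase differed little between the arrays. HEXA, the alpha subunit of beta-hexosaminidase, was at 11.12 on the control array and 11.56 after ANO5 siRNA. GAA, which degrades glycogen, was at 9.34 and 9.56, and GUSB, beta-glucuronidase, at 10.69 and 10.54. ASAH1, acid ceramidase, was at 13.01 and 13.34. These 4 lay within 1.5-fold. GLA, alpha-galactosidase A, was at 10.34 on the control array and 9.68 after ANO5 siRNA, and was 1.58-fold lower. The median of these 5 enzymes was 0.22. PSAP, the precursor of the saposins that present lipids to such enzymes, was at 13.69 on the control array and 14.58 after ANO5 siRNA (1.85-fold higher). Over all 14 measured hydrolases, proteases included, 4 (28.6%) were higher and 1 (7.14%) lower by 1.5-fold, beside 23.2% and 20.1% of all measured genes. Without CTSH the median of the hydrolases was 0.22 in place of 0.28, and their SD 0.56 in place of 1.02.

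**Figure D3:**
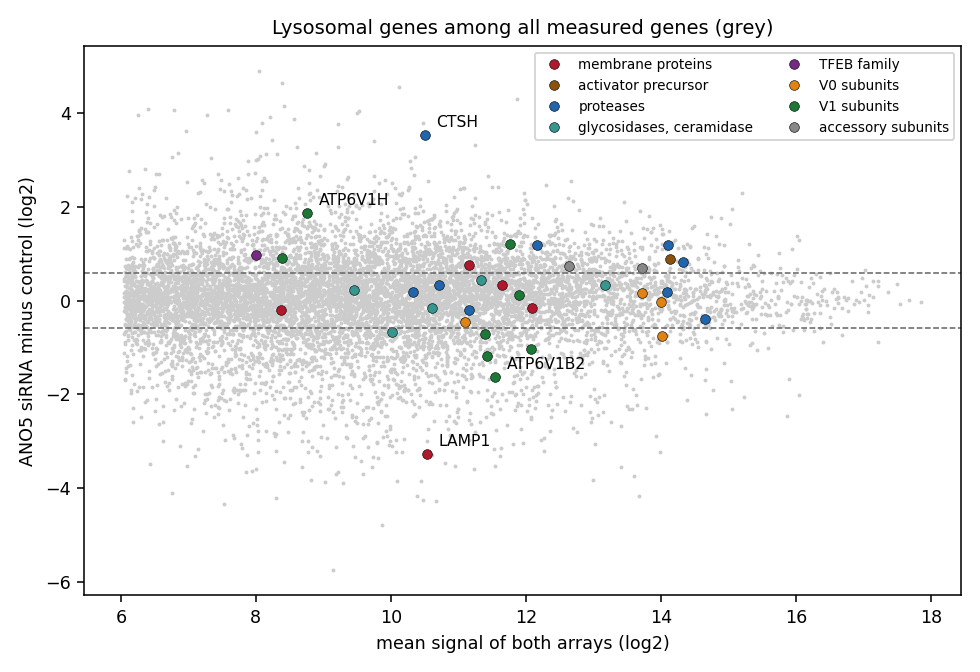
Difference (ANO5 siRNA minus control, log2) against mean log2 signal of both arrays for all 9735 measured genes in grey and the 35 measured lysosomal genes in colour by role. Dashed lines mark 1.5-fold. LAMP1 and CTSH lie at the edges of the cloud at a similar mean level, and most other lysosomal genes lie inside it.

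The V-ATPase genes differed in both directions, as did measured genes in general. By at least 1.5-fold, 5 of the 14 measured (35.7%) were higher and 5 lower, beside 23.2% and 20.1% of all measured genes, and the median was 0.05. The spread was widest in the V1 sector, with an SD of 1.28 over 8 subunits against 0.42 over 4 subunits of V0. Within V1, 3 subunits were higher, 4 lower and 1 level.

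In V1, ATP is hydrolysed by a ring of A and B subunits. ATP6V1A was at 11.84 on the control array and 11.96 after ANO5 siRNA (0.12). ATP6V1B2 was at 12.35 and 10.73, a difference of -1.62 or 3.07-fold lower. The catalytic partner A was therefore level while B2 was lower. The central stalk joins this ring to the rotor and holds subunits D and F. ATP6V1D was at 7.93 on the control array and 8.84 after ANO5 siRNA (1.88-fold higher), and ATP6V1F at 12.60 and 11.56 (2.06-fold lower). The peripheral stalks are made of E and G subunits. ATP6V1E1 was at 11.74 on the control array and 11.04 after ANO5 siRNA (1.62-fold lower). ATP6V1G1 was at 12.02 and 10.84 (2.27-fold lower). Both stalk subunits were thus lower. Subunits C and H connect the stalks to V0 and take part in the regulated joining of the sectors. ATP6V1C1 was at 11.16 on the control array and 12.38 after ANO5 siRNA (2.33-fold higher). ATP6V1H was at 7.82 and 9.69, a difference of 1.87 or 3.66-fold higher. Both of these were higher, and ATP6V1H was second only to CTSH among the lysosomal genes.

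The V0 sector differed less between the arrays. ATP6V0C, which forms most of the proton-carrying ring, was at 13.64 on the control array and 13.81 after ANO5 siRNA. ATP6V0B, another ring subunit, was at 11.33 and 10.87 (-0.46), and passed 1.5-fold only under loess scaling, at -0.59. ATP6V0D1, which couples the ring to the central stalk, was at 14.02 and 13.99. ATP6V0E1, a small membrane subunit, was at 14.39 on the control array and 13.63 after ANO5 siRNA (1.69-fold lower). It was the only measured V0 subunit past 1.5-fold. The accessory subunits went the other way. ATP6AP1 was at 12.28 on the control array and 13.01 after ANO5 siRNA (1.66-fold higher), and ATP6AP2, the prorenin receptor, at 13.37 and 14.06 (1.61-fold higher). Both genes are on the X chromosome, as are LAMP2, GLA and TFE3. The 5 X-linked genes ranged from -0.66 to 0.97, so they did not share a direction.

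Of the TFEB family, TFE3 was at 7.51 on the control array and 8.48 after ANO5 siRNA, and was 1.96-fold higher. MITF was at 3.70 and 3.78, below the measured range on both arrays, so its difference of 0.08 cannot be read as a level of expression. The family is thus represented by TFE3 alone in the measured range.

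E-box cores were counted in the promoters of the lysosomal genes because TFEB, TFE3 and MITF bind such elements. The RefSeq table held windows for 30 of the 41 genes, and for a gene with several windows a core in any of them was counted. A core was found in 9 of the 30 (30%), and in 8 of the 24 that were in the measured range. Of all 8134 measured genes with a window, 13% held a core. Counted per window rather than per gene, the share was 7.26% of all 35116 windows. One of the 9 was NEU1, which had no value. The other 8 are LAMP1, MCOLN1, CTSA, CTSD, GAA, ATP6V0B, ATP6V0D1 and ATP6V1G1. For the 7 besides LAMP1, 1 core each is shown with 12 bases on both sides, 5′ to 3′ along the gene, with the core in capitals. Where a window held 2 cores, the one with the longer match to a palindrome was taken, in which GT precedes the core and AC follows it, or, in a tie, the one nearer the start site. This full palindrome holds the core within it and is close to the element described for TFEB. The order runs from the lowest to the highest difference.
ATP6V1G1 (chr9:114587699-114587728, plus strand): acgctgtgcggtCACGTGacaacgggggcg
ATP6V0B (chr1:43974891-43974920, plus strand): ccggcgtggggtCACGTGgtaccggcgcat
MCOLN1 (chr19:7522598-7522627, plus strand): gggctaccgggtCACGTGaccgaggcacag
ATP6V0D1 (chr16:67481199-67481228, minus strand): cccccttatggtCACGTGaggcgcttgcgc
CTSA (chr20:45891298-45891327, plus strand): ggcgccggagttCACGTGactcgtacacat
GAA (chr17:80101538-80101567, plus strand): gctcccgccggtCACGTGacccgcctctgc
CTSD (chr11:1763957-1763986, minus strand): gccggccgcgccCACGTGaccggtccgggt

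The genes with a core did not share a direction. Their differences ran from -3.27 for LAMP1 to 1.18 for CTSD, with a median of -0.12, and 1 was higher and 2 lower by 1.5-fold. The 16 measured lysosomal genes with a window and no core had a median of 0.34, with 7 higher and 3 lower, beside 23.2% and 20.1% of all measured genes. Only 24 of the 35 measured lysosomal genes had a window. Those without one include LAMP2, CTSB, ATP6V1B2 (-1.62) and ATP6V1H (1.87). Among all measured genes with a window, those with a core had a median of 0.05 and those without 0.07, and 24.7% of those with a core were higher and 20% lower by 1.5-fold. The full palindrome was found in 0.35% of all windows and in those of MCOLN1, GAA and ATP6V1G1, whose differences were -0.20, 0.22 and -1.18. By number of cores, LAMP1 held 6, MCOLN1, CTSA, GAA and ATP6V0B held 2 each and lay between -0.46 and 0.22, and ATP6V1G1 (-1.18), ATP6V0D1 (-0.03) and CTSD (1.18) held 1 each. Besides LAMP1, 3 measured genes had a window with 4 or more cores, AMDHD2, BAX and RAD9A, named here after their values were seen. Their differences were -0.52, -0.10 and -1.27, all below 0 as that of LAMP1. Those of AMDHD2 and BAX lay within 1.5-fold. AMDHD2, at 6.01 after ANO5 siRNA, was below the limit of the measured range on that array. Of all 9735 measured genes, 4405 had a difference below 0, so this sign is common. Whether the number of cores goes with direction was not tested. A match to these letters describes the sequence and shows no binding, and no binding data were used.

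**Figure D4:**
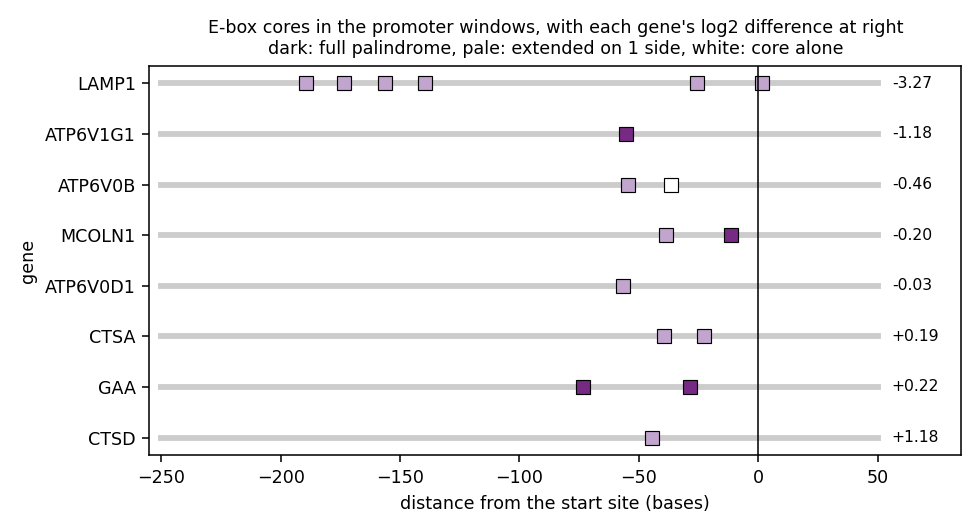
Position of each E-box core in the promoter windows of the 8 measured lysosomal genes that hold one, in bases from the start site, with the gene's log2 difference at the right. Dark squares are full palindromes, pale squares extend the core on 1 side, and the white square is the core alone. LAMP1, at the top, has 6 squares, and no other gene shown has more than 2.

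The other genes of the pathway were read from 6 further lists, of which 88 genes were in the table and 80 in the measured range. Of 21 measured genes listed as hydrolases outside the 41 genes, 11 (52.4%) were higher and 3 (14.3%) lower by 1.5-fold, with a median of 0.90. The list includes HGSNAT (-0.04), which is an acetyltransferase and no hydrolase. The background of all measured genes was 23.2% and 20.1%. SMPD1, acid sphingomyelinase, was at 5.11 on the control array and 7.22 after ANO5 siRNA. IDUA, alpha-L-iduronidase, was at 5.67 and 7.49. Both lay below the limit of 6.05 in the control and entered the measured range only through the knockdown, where they were high. IDUA and HGSNAT, like ATP6V1G3, RPTOR, BORCS6 and RAB7A below, were named after their values were seen. Without SMPD1 and IDUA, 9 of 19 were higher and 3 lower, and the median was 0.30. IDS, iduronate 2-sulfatase, was at 10.98 and 12.93 (3.86-fold higher). ARSB, arylsulfatase B, was at 9.62 and 8.63 (1.99-fold lower), and CTSV, the cathepsin closest to CTSL, at 9.47 and 8.61 (1.82-fold lower). Of the 14 measured hydrolases among the 41 genes, 28.6% were higher, a share near the background, and 7.14% lower, a share below it.

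Of 20 other lysosomal membrane proteins, 5 (25%) were higher and 3 (15%) lower, near the background of 23.2% and 20.1%, with a median of 0.24. The calcium release channels TPCN2 and TPCN1 were 2.06-fold and 1.95-fold higher. LAMP3, a relative of LAMP1 and LAMP2, was at 8.29 on the control array and 6.33 after ANO5 siRNA (3.89-fold lower). Its value in the knockdown is close to the limit of 6.05. LAMP3 was thus lower, as was LAMP1, whereas LAMP2 was nearly level. TMEM192 was at 8.68 and 7.12 (2.95-fold lower). Of 9 measured further V-ATPase subunits and assembly factors, 3 (33.3%) were higher and 1 (11.1%) lower, beside the same background. ATP6V1G3, at 6.02 and 6.28, passed the limit of the measured range only through the knockdown. Without it, 3 of 8 (37.5%) were higher and 1 (12.5%) lower. ROGDI and DMXL2, which help V1 join V0, were 2.13-fold and 1.75-fold higher. ATP6V0A2, an isoform of the large V0 subunit, was at 8.87 and 8.22 (1.57-fold lower).

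Receptors and adaptors that deliver the enzymes differed among themselves. M6PR, the small mannose 6-phosphate receptor, was at 13.96 on the control array and 12.07 after ANO5 siRNA (3.71-fold lower). IGF2R, the large one, was at 8.54 and 9.28 (1.67-fold higher). GGA2, an adaptor that packs these receptors into vesicles, was at 11.72 and 9.51 (4.63-fold lower). NAGPA, which uncovers the mannose 6-phosphate tag, was 1.52-fold higher. Of the 8 measured genes of this list 2 (25%) were higher and 3 (37.5%) lower, beside 23.2% and 20.1% of all measured genes, with a median of -0.18.

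The next list held the Rag GTPases, the Ragulator and the folliculin complex, which report nutrients to mTORC1 on the lysosomal surface, together with subunits of mTORC1 itself and its regulators RHEB, TSC1 and TSC2. By 1.5-fold, 12 of the 16 measured were higher and 2 lower, with a median of 0.73, beside the background of 23.2% and 20.1%. RPTOR, the mTORC1 subunit raptor, was at 5.87 and 6.96 and passed the limit only through the knockdown. Without it, 11 of 15 were higher and 2 lower. FNIP2, a partner of folliculin, was at 9.07 on the control array and 10.69 after ANO5 siRNA (3.07-fold higher). RRAGB, a Rag GTPase, was at 6.92 and 8.18 (2.39-fold higher). RRAGA, its close relative, was at 8.84 and 8.18 (1.58-fold lower), and LAMTOR4, a Ragulator subunit, was 1.52-fold lower. Of the 6 measured genes that move lysosomes along microtubules, 4 were higher and 0 lower, beside 23.2% and 20.1% of all measured genes. BORCS6, at 5.80 and 6.94, again passed the limit only through the knockdown, and without it 3 of 5 were higher. One of these 3, RAB7A, was at 16.21 on the control array and 16.80 after ANO5 siRNA. Its difference of 0.59 is barely past 1.5-fold (0.585 on the log2 scale). BORCS7, a subunit of the complex that recruits kinesin, was at 8.47 and 10.49 (4.06-fold higher). RILP, which links lysosomes to dynein, was 2.55-fold higher.

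**Figure D5:**
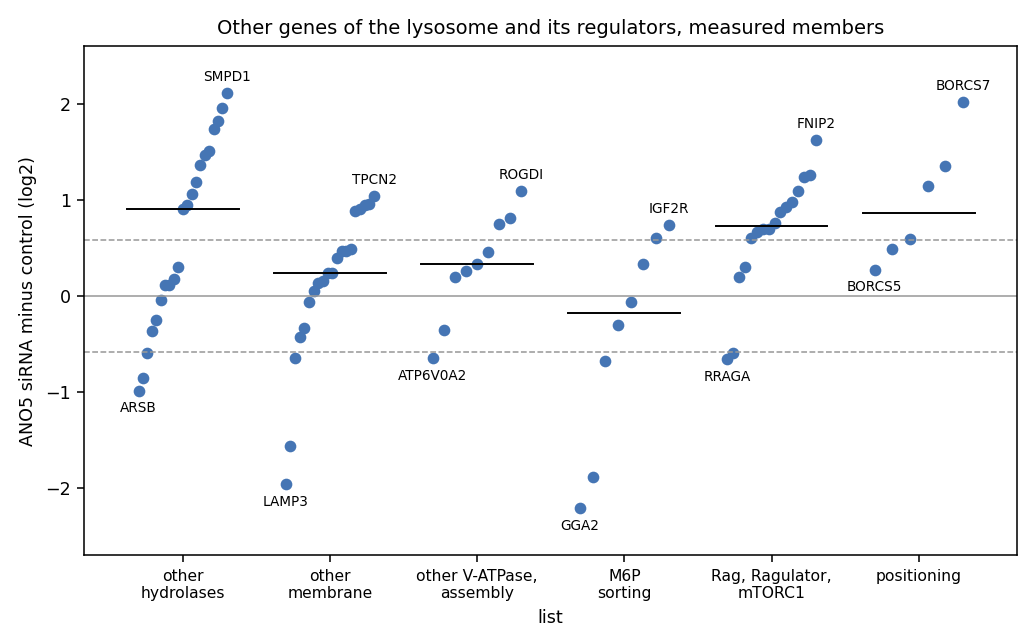
Difference (ANO5 siRNA minus control, log2) of the measured genes of 6 further lists, sorted within each list, with the lowest and the highest gene named. Black bars are medians and dashed lines mark 1.5-fold. The medians run from -0.18 for mannose 6-phosphate sorting to 0.90 for the other hydrolases (0.30 without SMPD1 and IDUA).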

How the data were processed

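The authors deposited 1 value per array for 17345 transcript clusters, read here as log2 signal because the values run from 2.13 to 18.15. Agilent Feature Extraction 12.0.3.1 is listed in the submitters' processing notes, although identifiers of this form are used by a different array maker. How probes were summarised, corrected and normalized, the log base and the build were not given in the sources used here. Probe sequences were not used, so cross-hybridisation was not tested. Of the clusters, 14544 had 1 gene symbol in the platform's annotation, 0 several and 2801 none. The 36 lysosomal genes in the table have 1 cluster each; of other genes with several, the cluster with the highest mean was used. All 36 matched a human gene record by Entrez identifier.

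Values were used as deposited, since the arrays' 75th percentiles over named genes (10.54 and 10.56) nearly coincide. Differences are ANO5 siRNA minus control and were called by size alone, at 1.5-fold. Named genes were ANO5, the 41 genes, the markers and, of each further list, the 2 measured genes farthest each way past 1.5-fold, with M6PR and IGF2R. The genes and lists were chosen with earlier results of these data known. Scripts were tested on simulated data with planted changes larger than 2-fold and little noise. That test does not measure how reliable the 1.5-fold calls are. Alternatives were 4 scalings, a pseudocount of 16, the median over clusters, no filter, a filter at the 50th percentile and sizes of 2-fold and 3-fold. Promoter windows came from RefSeq (GRCh38.p14). Python 3.11.15, numpy 2.4.6, pandas 2.3.3 and statsmodels 0.14.6 were used.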

Additional observations from a re-analysis of the deposited data

How the results depend on the processing

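LAMP1 kept a difference between -3.39 and -3.23 and CTSH one between 3.42 and 3.55 under the scalings and the pseudocount. LAMP1 minus the median of the other membrane proteins was -3.37 to -3.32 under all alternatives run on it. A shift common to all genes cancels in this contrast, and the filters and the cluster rule do not touch these genes. Only quantile scaling, loess scaling and the pseudocount could move it. Of 216 values of single lysosomal genes under alternatives, 208 kept their side of 1.5-fold and moved little, 7 moved, and ATP6V0B passed 1.5-fold under loess scaling. The 7 also moved under loess scaling. This tally overstates how stable the values are. The cluster rule could not change any of these genes, since each has 1 cluster. Median centring and the common percentile only shifted all genes by a small constant. Loess with a span of 0.4 moved the medians of all 5 membrane proteins to -0.27, the other 4 to -0.031, the proteases to 0.21, the hydrolases to 0.17 and the V-ATPase to -0.067, and ATP6V1A to -0.02. It lowered the median of all measured genes from 0.07 to -0.01. Without a filter the TFEB family median, then of TFE3 and MITF, was 0.525. That of the other hydrolases was 0.60 without a filter and with the filter at the 50th percentile. Leaving out genes below the limit on 1 array, chosen after seeing the data, gave 0.30 for the other hydrolases. With the filter at the 50th percentile the other membrane proteins had a median of 0.39 and the sorting genes -0.30. The counts of higher and lower lysosomal genes were 5 and 4 at 2-fold, and 2 and 2 at 3-fold, because the threshold changed. A pseudocount of 16 moved ANO5 to -2.18. No paired analysis was possible because each group holds 1 array. Signal near background limits folds that rest on a low value, such as those of ANO5, SMPD1 and IDUA.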

Other observations

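The E-box count was repeated on the 6 further lists, chosen after seeing the data. Of their 69 measured genes with a promoter window, 20 (29%) held a core, beside 13% of all measured genes with a window. These 20 had a median difference of 0.38 on the log2 scale, with 10 higher and 4 lower by 1.5-fold, and of all measured genes with a core 24.7% were higher and 20% lower. The 49 without a core had a median of 0.49, with 23 higher and 5 lower, beside 23.2% and 20.1% of all measured genes, with or without a core. Among these 23 are SMPD1, IDUA and RPTOR, and among the 10 with a core is BORCS6. All of these passed the limit of the measured range only through the knockdown, where they were high. The counts were not repeated without them, so they are no support for a difference between genes with and without a core. The full palindrome was found for GALNS, a sulfatase (-0.25), GNPTG, a subunit of the enzyme that makes the mannose 6-phosphate tag (-0.06), IGF2R (0.74) and RRAGB (1.26). M6PR, which held a core but not the full palindrome, had the lowest difference of the 20 at -1.89. These values have no replicate check.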
